A study of Mus musculus with 14 samples.

Results

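The genes described here are 10 transcription factors that set the resting or effector state of regulatory T cells (Treg cells): Prdm1 (which encodes Blimp-1), Irf4, Batf, Maf, Bach2, Bcl6, Id2, Id3, Ahr and Nfil3. They were taken as every probe set that the platform annotation gives to 1 of these symbols alone, which made 22 of the 45101 probe sets of a 1-colour Affymetrix mouse array, and 10 of the 18193 genes that have such a probe set. A scaled signal of at least 100 in at least 3 arrays was reached by 20 of the 22, and a gene with several was read by the brightest, the one with the highest mean log2 signal. The probe sets Maf 1447945_at and Bcl6 1450381_a_at stayed under that limit and were not tested.

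All 14 arrays hold RNA of CD4+Foxp3+ cells sorted by GFP from mice whose Foxp3 gene carries an ires-GFP knock-in, on the 129/SvJ background (H-2b), and ages are not given in the labels. A sort purity is stated for all groups but naive replicates 1 to 3. Naive replicates 1 to 6 came from spleens of resting mice, and the submitters set replicates 1 to 3 as controls for the GVHD arrays and replicates 4 to 6 as controls for the tumor arrays. For the 3 GVHD-activated samples (graft-versus-host disease), wild-type BALB/c mice (H-2d) were lethally irradiated with 900 cGy, were given 2000000 CD4+ and CD8+ T cells of the knock-in mice and 2000000 wild-type 129/SvJ bone marrow cells, and their spleens were sorted on day 4, so the cells had expanded in a host of another strain. For the 5 tumor-activated samples, knock-in mice were injected intraperitoneally with 1000000 cells of P815 (DBA/2, H-2d), a tumor line derived from mast cells, and cells were sorted from the ascites 5 days later. The labels name biological replicates but do not tie each to an animal of its own, so p-values rest on the spread among samples, which may in part be technical. The arrays had been deposited at a trimmed mean of 1500 for GVHD and 500 for the other 11, and none of the sets processed alike holds both GVHD arrays and their controls, so in the GVHD comparison batch and group cannot be told apart.

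Resting Treg cells of lymphoid organs are held in that state by repressors such as Bach2 and by Id3, an inhibitor that binds E proteins and keeps them off DNA. On stimulation through the antigen receptor, Irf4 with its AP-1 partner Batf opens the effector programme, in which Blimp-1 takes part, and Blimp-1 and Bcl6 are known to repress each other in lymphocytes. Maf, the aryl hydrocarbon receptor Ahr and the bZIP repressor Nfil3 adjust cytokine production and tissue residence, and Id2 often rises where Id3 falls.

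Signals below are MAS5 intensities rescaled so that each array has a 2% trimmed mean of 500. Fold changes were taken after an offset of 32 was added, so those of dim probe sets are understated. Adjusted p-values are Benjamini-Hochberg values of limma over 22143 probe sets, and "rose" and "fell" are kept for genes with a value under 0.05. Correlations within groups ran from 0.829 to 0.979, the lowest among the tumor arrays. Tumor-activated replicate 3 had 37.3% of its probe sets at a signal of 100 or more, against 45.6% to 55.4% on the other 13 arrays. The only probe set of Foxp3 read at most 108 on every array, so it does not check the sort, while the Treg markers Il2ra and Ctla4 read at least 460 and 3632. Other Treg markers went the other way. Of 8 tested, 1 rose and 3 fell in each comparison, and Gpr83 and Nrp1 read 45.8 and 105 on tumor-activated replicate 3. The sum of 9 Treg markers was 64921 to 66070 on naive replicates 4 to 6 and 19449 to 66933 in the tumor arrays, so these markers do not check the sort either. On tumor-activated replicate 3 the T cell genes Cd3e, Cd4 and Zap70 read 39.5, 21.6 and 11.9.

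Prdm1, Batf and Ahr were higher in GVHD-activated than in naive Treg cells, and Bach2, Bcl6 and Id3 were lower by 5.71-fold to 14.2-fold. Of the 10 genes, 3 rose (Prdm1, Batf and Ahr) and 3 fell (Bach2, Bcl6 and Id3) against naive replicates 1 to 3, where 9.55% of all 12212 genes rose and 12.1% fell. Irf4, at an adjusted p of 0.053, did not pass, and neither did Maf, Id2 and Nfil3. At the level of probe sets 4 of 20 rose and 5 fell, against 8.69% and 11.9% of all. In 13 of the 20 the arrays of both groups did not overlap, against 46.5% of all probe sets. Without tumor-activated replicate 3, which enters this comparison only through the shared estimate of the spread, 5 genes rose, Irf4 (adjusted p = 0.0022) and Maf (adjusted p = 0.0022) being added. The main-fit shares above do not apply to that fit. Calls over all probe sets moved too, from 1925 higher with all arrays to between 1321 and 2891 when 1 array was left out.

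In the tumor-activated arrays the same repressors Bach2, Bcl6 and Id3 were again lower, but Prdm1, Batf and Ahr were not higher, Irf4 was lower, and Nfil3 alone was higher. Against naive replicates 4 to 6, 1 of the 10 genes rose (Nfil3) and 4 fell (Irf4, Bach2, Bcl6 and Id3), where 16% of all genes rose and 15.3% fell. Of 20 probe sets 2 rose and 7 fell, against 14.1% and 16.4% of all, and in 11 the groups were fully separate, against 33.8% of all. The median log2 change of the 10 genes was 0.49 in GVHD and -0.92 in the tumor arrays, beside -0.11 and -0.06 over all genes. Without tumor-activated replicate 3 the count was again 1 gene higher and 4 lower, and without that array and naive replicate 6 together it was 1 higher and 3 lower, Irf4 no longer passing (adjusted p = 0.050). Over all probe sets, 3115 were higher and 3639 lower with all arrays. Leaving out 1 array gave 1994 to 3589 higher and 1734 to 4073 lower.

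**Figure D1:**
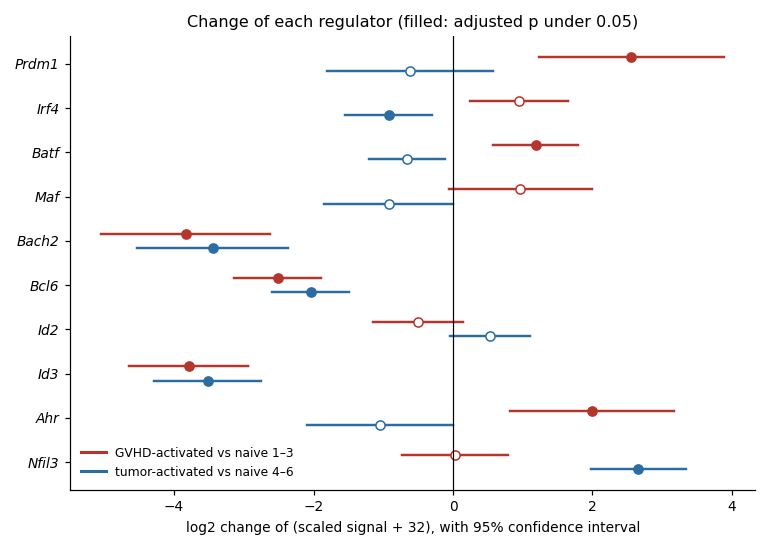
Log2 change of each of the 10 regulators (x axis, log2 of scaled signal + 32) in GVHD-activated arrays against naive replicates 1 to 3 and in tumor-activated arrays against naive replicates 4 to 6, with 95% confidence intervals from limma; filled points have an adjusted p under 0.05. Bach2, Bcl6 and Id3 lie far to the left in both comparisons, from -2.04 to -3.83, whereas Prdm1, Batf and Ahr are called in GVHD only and Nfil3 (2.66) in the tumor comparison only.

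Markers of other cells moved with the tumor comparison. The 14 genes of the T cell receptor and lineage summed to 77694 to 106292 on naive replicates 4 to 6 and to 9520 to 53547 on the tumor arrays, and 12 of the 14 fell. The sum of 12 macrophage and monocyte genes went from between 706 and 5729 to between 28104 and 74098, with 11 of 12 higher. For 12 mast cell and mastocytoma genes it went from between 878 and 6573 to between 60075 and 118117, with 8 of 10 tested genes higher, while their defining markers Fcer1a and Ms4a2 read at most 57.8 and 70.0 on every array. Naive replicate 6 held the highest naive value of both lists. B cells and plasma cells, which also use Blimp-1, Irf4, Bach2 and Bcl6, were represented by 11 genes whose sum was 10828 to 27751 on naive replicates 4 to 6 and 2056 to 9179 in the tumor arrays, and 7 of 10 tested fell. In the GVHD comparison 0 of 14 T cell genes passed in either direction by limma, and the macrophage sums, 842 to 1693, and mast cell sums, 560 to 929, stayed low. The B and plasma cell sum was 14474 to 25092 on naive replicates 1 to 3 and 16890 to 24832 in GVHD. On every naive and GVHD array most of that sum was 1 gene, Ighm, with 21336 of 27751 on naive replicate 4. The sum therefore mainly follows Ighm and says little about the other genes of the list. Fewer Treg cells and less RNA per cell cannot be told apart in such bulk samples, and the part these markers have in the tumor values below was not tested.

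**Figure D2:**
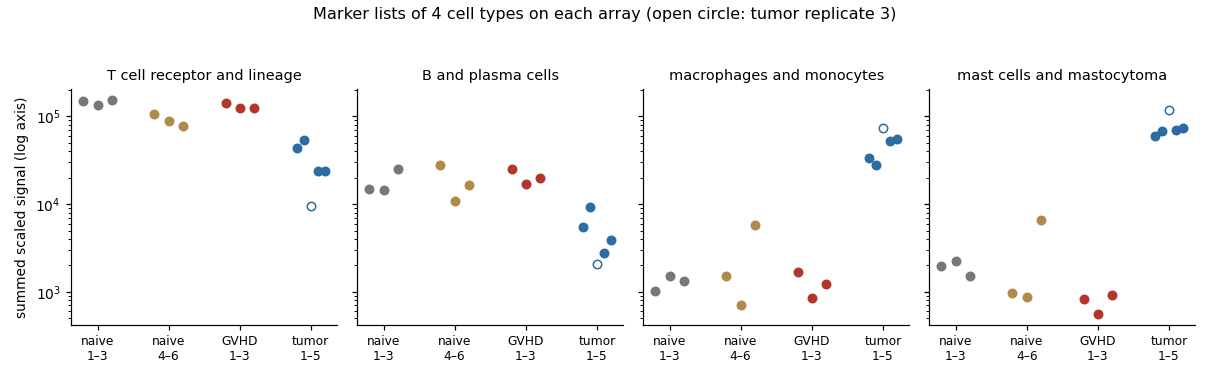
Summed scaled signal (log axis) of marker lists on each of the 14 arrays, by group. The sum of the T cell genes is lowest on tumor-activated replicate 3 (9520), and macrophage and mast cell lists lie at or above 28104 on the 5 tumor arrays and at or below 6573 on the other 9.

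Each array was therefore also centred on the mean of its T cell genes. This put the median over all probe sets in the tumor comparison at 1.87 on the log2 scale, so the values it gives are to be read against that shift. With it, Bach2 (log2 -1.44, adjusted p = 0.011) and Id3 (log2 -1.52, adjusted p = 0.043) were again lower in the tumor arrays and Bcl6 was at -0.04 (adjusted p = 0.95). Prdm1 (1.38), Irf4 (1.08), Batf (1.34), Maf (1.07) and Ahr (0.96) changed sign and lay below the shift of all probe sets, and Nfil3 was at 4.66.

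Prdm1 encodes the zinc finger repressor Blimp-1, which is needed for the effector functions of Treg cells. Its probe set 1420425_at read 519, 294 and 377 on naive replicates 1 to 3 and 1889, 2610 and 2926 on the GVHD-activated arrays. All GVHD arrays lay above their controls, and the gene rose 5.89-fold (log2 2.56, SE 0.63, adjusted p = 0.0084). Naive replicates 4 to 6, however, read 1894, 1655 and 1571, a mean of 1707 ± 168 (SD, n = 3) against 397 ± 114 (SD, n = 3) for replicates 1 to 3. These 2 sets of naive arrays did not overlap, although the difference between them missed the threshold (log2 2.05, SE 0.63, adjusted p = 0.058). Against naive replicates 4 to 6 the GVHD value was 0.51 (adjusted p = 0.57), so Prdm1 passed in GVHD against its assigned controls and not against the other naive set.

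The tumor-activated arrays read 2299, 2481, 191, 1380 and 968 for Prdm1, a spread that covers both naive sets. Replicate 3 was far below the other 4, and the change against naive replicates 4 to 6 was -0.62 (SE 0.56, adjusted p = 0.43), or -0.03 without that array. Against naive replicates 1 to 3 the same arrays gave 1.43 (adjusted p = 0.048). In order of mean level, naive replicates 1 to 3 were lowest, then tumor-activated, naive replicates 4 to 6 and GVHD-activated arrays, and each neighbouring pair overlapped, the lowest pair through tumor-activated replicate 3 alone. The 300 bases around the start of Prdm1, from 250 before to 50 after it (RefSeq, GRCm38.p6, chr10:44458699-44458998, minus strand), are shown because the gene is the effector regulator with the largest rise in GVHD. Capitals mark motifs found on either strand.

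Prdm1: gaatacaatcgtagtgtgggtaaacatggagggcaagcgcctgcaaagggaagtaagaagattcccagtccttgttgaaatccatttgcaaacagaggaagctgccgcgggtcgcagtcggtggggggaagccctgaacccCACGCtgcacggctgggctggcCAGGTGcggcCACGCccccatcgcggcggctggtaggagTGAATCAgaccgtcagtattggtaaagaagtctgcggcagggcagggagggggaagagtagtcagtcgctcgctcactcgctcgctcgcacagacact

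The window holds TGANTCA, the AP-1 and BATF motif, 48 bases before the start, which 7.81% of 32851 RefSeq promoter windows also hold. It has CACCTG, an E box, on the minus strand (20.2% of all windows) and GCGTG, the core letters of the Ahr motif, at 2 places on the minus strand (32.4% of all windows). These are descriptions of the letters alone.

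Irf4 and Batf bind composite sites together downstream of the T cell receptor, and for both the tumor arrays had the lowest mean level and the GVHD arrays the highest. Irf4 1421173_at read 1064, 979 and 1034 on naive replicates 1 to 3, 1533, 2123 and 2472 in GVHD, 1099, 1376 and 1428 on naive replicates 4 to 6, and 838, 647, 334, 910 and 796 in the tumor arrays. The 4 groups did not overlap at any point, with tumor-activated lowest, then naive replicates 1 to 3, naive replicates 4 to 6 and GVHD-activated. The GVHD value was 0.95 (SE 0.33, adjusted p = 0.053) and the tumor value -0.92 (SE 0.30, adjusted p = 0.027), a fall whose sign turned to 1.08 when arrays were centred on T cell genes. Leaving out naive replicate 5 or 6 ended the call of the tumor fall (adjusted p = 0.098 and 0.094), as did controls from naive replicates 1 to 3 (log2 -0.59, adjusted p = 0.11).

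The second Irf4 probe set, 1421174_at, was dimmer. It read 301, 163 and 160 in GVHD, where all other arrays lay between 26.5 and 112. That was a rise of 3.01-fold against naive replicates 1 to 3 (log2 1.59, SE 0.38, adjusted p = 0.0076), and it also passed against naive replicates 4 to 6 (log2 1.22, adjusted p = 0.023). In the tumor arrays it gave -0.23 (adjusted p = 0.66), so the tumor call for Irf4 rested on 1 of its 2 probe sets.

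Batf 1419410_at read 2683, 2891 and 3326 on naive replicates 1 to 3, 2600, 2789 and 2711 on naive replicates 4 to 6 and 7808, 6500 and 6069 in GVHD. The naive sets overlapped, at means of 2967 ± 328 and 2700 ± 95.3 (SD, n = 3 each), and every GVHD array was above all 6 naive arrays, as 13% of all probe sets were. Batf rose 2.27-fold in GVHD against its assigned controls (log2 1.18, SE 0.29, adjusted p = 0.0080) and 2.48-fold against the other naive set (adjusted p = 0.0029). The tumor arrays, at 2329, 2505, 1319, 1260 and 1441, lay below all 6 naive arrays. Their change was -0.66 (SE 0.26, adjusted p = 0.062), which passed when either tumor-activated replicate 1 or replicate 2 was left out (adjusted p = 0.037 and 0.020), and turned to 1.34 with centring on T cell genes.

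Maf encodes c-Maf, a bZIP factor tied to IL-10 production in T cells, and has 6 probe sets here. The brightest, 1456060_at, read 4265, 4347 and 5199 on naive replicates 1 to 3, 7857, 9891 and 9361 in GVHD, 9505, 10166 and 13305 on naive replicates 4 to 6, and 9565, 9271, 1549, 7263 and 6050 in the tumor arrays. GVHD arrays lay above naive replicates 1 to 3 and overlapped naive replicates 4 to 6, and neither GVHD (log2 0.97, adjusted p = 0.18) nor tumor (log2 -0.92, adjusted p = 0.12) passed. The other 4 tested probe sets gave between -0.23 and 0.79 in GVHD with no call. With the tumor 2 of them fell, 1435828_at by 1.66 (adjusted p = 0.026) and 1444073_at by 2.30 (adjusted p = 0.0069) on the log2 scale, with tumor-activated replicate 3 lowest on both at 47.1 and 22.3.

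**Figure D3:**
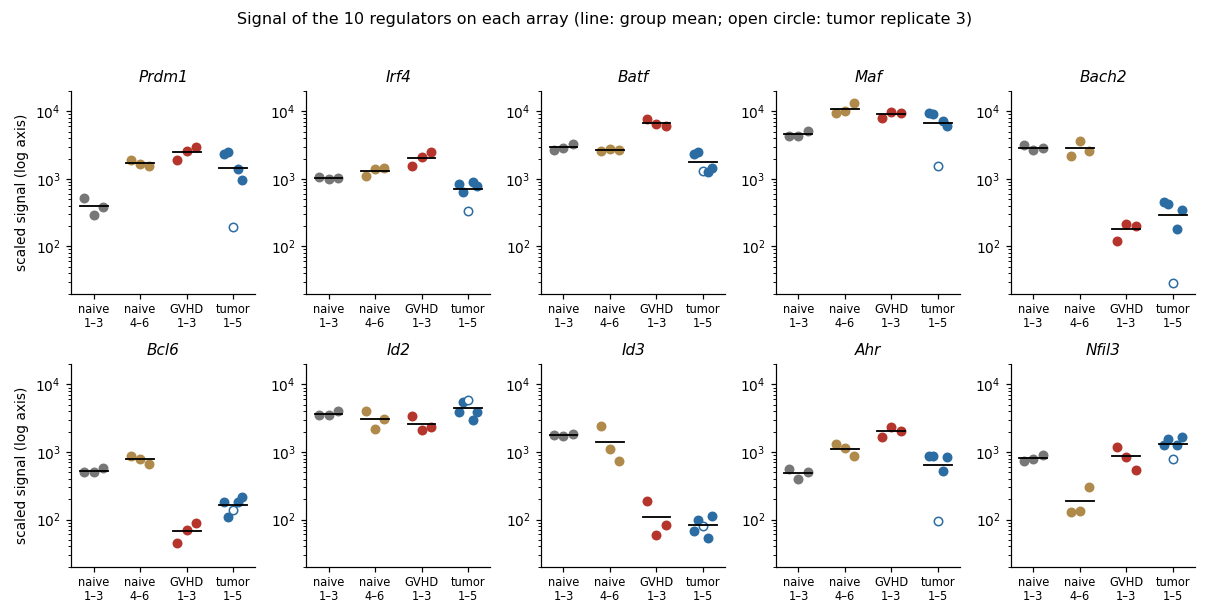
Scaled signal (log axis) of the probe set that stands for each of the 10 regulators on all 14 arrays, by group, with the mean of each group as a bar. Bach2, Bcl6 and Id3 put both activated groups below all 6 naive arrays. Batf (6069 to 7808), Irf4 (1533 to 2472) and Ahr (1677 to 2377) put GVHD above every other array, and Irf4 and Batf also put the tumor arrays below all 6 naive arrays. The naive sets do not overlap for 6 of the 10 genes, Prdm1, Irf4, Maf, Bcl6, Ahr and Nfil3, against 38.1% of all probe sets.

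Bach2, a bZIP repressor that keeps T cells from effector differentiation, showed the largest change of the 10 genes in GVHD. Its probe set 1436515_at read 3145, 2703 and 2870 on naive replicates 1 to 3 and 2154, 3682 and 2615 on naive replicates 4 to 6. It read 122, 215 and 198 in GVHD and 460, 421, 28.5, 183 and 345 in the tumor arrays. The naive sets overlapped each other, the activated groups overlapped each other, and no activated array came near a naive one.

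Bach2 fell 14.2-fold in GVHD (log2 -3.83, SE 0.57, adjusted p = 0.00017) and 10.9-fold in the tumor arrays (log2 -3.44, SE 0.51, adjusted p = 0.00015). Tumor-activated replicate 3 was the lowest array, and without it the tumor value was -2.92 (adjusted p = 2.1e-06). A second probe set, 1437667_a_at, fell 26.2-fold and 8.34-fold. The third, 1445460_at, was dim, fell 2.10-fold in GVHD (adjusted p = 0.027) and did not pass in the tumor arrays (log2 -0.54, adjusted p = 0.18), yet every activated array of all 3 probe sets lay below all 6 naive arrays. In GVHD 18.6% of all probe sets did so, and in the tumor comparison 12.6%. None of the 22 probe sets had all tumor arrays above all naive ones, where 10.7% of all probe sets did.

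Bcl6 encodes the BTB zinc finger repressor of follicular T cells, which opposes Blimp-1. Its probe set 1421818_at read 502, 501 and 586 on naive replicates 1 to 3, 877, 791 and 660 on naive replicates 4 to 6, 44.6, 69.2 and 89.9 in GVHD and 183, 110, 138, 185 and 218 in the tumor arrays. The groups did not overlap anywhere, in the order GVHD, tumor, naive replicates 1 to 3 and naive replicates 4 to 6. Bcl6 fell 5.71-fold in GVHD (log2 -2.51, SE 0.29, adjusted p = 1.5e-05) and 4.12-fold in the tumor arrays (log2 -2.04, SE 0.26, adjusted p = 3.9e-05). Both calls held against the other naive set, at -3.03 and -1.52, and both were lost when arrays were centred on T cell genes (adjusted p = 0.14 and 0.95).

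Id3 was low in every activated array. Id3 1416630_at read 1800, 1714 and 1849 on naive replicates 1 to 3 and 2402, 1115 and 730 on naive replicates 4 to 6, which was the widest spread within a naive set among the 10 genes' main probe sets on the log2 scale (SD 0.85). It read 187, 58.0 and 84.0 in GVHD and 67.2, 99.1, 79.2, 53.2 and 112 in the tumor arrays. Tumor-activated replicate 3, lowest for Prdm1, Maf and Bach2, was in the middle of its group here.

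Id3 fell 13.8-fold in GVHD (log2 -3.79, SE 0.40, adjusted p = 5.8e-06) and 11.5-fold in the tumor arrays (log2 -3.52, SE 0.36, adjusted p = 5.9e-06). With the naive sets exchanged it fell 9.76-fold and 16.2-fold. Bach2 and Id3 passed in the same direction in all 30 other settings of each comparison.

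The start regions of Bach2, Bcl6 and Id3, shown because these are the genes that fell in both comparisons, are again 300 bases long (RefSeq, GRCm38.p6). They are chr4:32417185-32417484 (plus strand) for Bach2, chr16:23988803-23989102 and chr16:23981234-23981533 (minus strand) for the first and second start of Bcl6, and chr4:136143572-136143871 (plus strand) for Id3. Capitals mark matches to the 7 motifs searched on both strands.

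Bach2: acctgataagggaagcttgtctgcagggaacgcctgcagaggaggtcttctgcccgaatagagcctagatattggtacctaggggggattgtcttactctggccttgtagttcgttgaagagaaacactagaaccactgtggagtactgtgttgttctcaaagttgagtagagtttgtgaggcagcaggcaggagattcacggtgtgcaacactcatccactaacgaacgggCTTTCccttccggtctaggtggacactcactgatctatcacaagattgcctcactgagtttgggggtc

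Bcl6, first start: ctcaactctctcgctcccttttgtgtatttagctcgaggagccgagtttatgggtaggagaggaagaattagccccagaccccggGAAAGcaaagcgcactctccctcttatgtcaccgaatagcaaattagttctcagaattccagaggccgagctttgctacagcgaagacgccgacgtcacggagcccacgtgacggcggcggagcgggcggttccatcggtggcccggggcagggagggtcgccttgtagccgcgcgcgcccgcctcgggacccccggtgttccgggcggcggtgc

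Bcl6, second start: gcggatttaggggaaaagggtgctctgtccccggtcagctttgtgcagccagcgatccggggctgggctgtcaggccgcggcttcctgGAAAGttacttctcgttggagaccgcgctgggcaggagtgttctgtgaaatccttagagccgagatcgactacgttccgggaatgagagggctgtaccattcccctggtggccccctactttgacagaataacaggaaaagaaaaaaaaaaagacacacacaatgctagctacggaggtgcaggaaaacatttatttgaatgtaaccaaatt

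Id3: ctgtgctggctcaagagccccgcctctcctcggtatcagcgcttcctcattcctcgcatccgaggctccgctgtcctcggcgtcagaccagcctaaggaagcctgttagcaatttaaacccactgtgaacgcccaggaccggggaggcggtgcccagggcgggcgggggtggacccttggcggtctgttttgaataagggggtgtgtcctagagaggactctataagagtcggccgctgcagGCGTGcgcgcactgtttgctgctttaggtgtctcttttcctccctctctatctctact

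In Bach2 and in both Bcl6 windows the only match is GAAAG, the core letters of Blimp-1 and IRF sites, 18 bases before the start of Bach2 on the minus strand and 165 and 162 bases before those of Bcl6. It occurs in 57.3% of all windows and also in those of Irf4 and Batf. Id3 holds GCGTG 8 bases before its start and none of the others. GCTGANTCA, the Maf and Bach motif that contains TGANTCA (1.19% of all windows), and TTANNTAA, the motif of Nfil3 (6.00%), were in none of the 9 windows of the 8 genes that had one, and CAGCTG, an E box (16.3%), was in those of Id2 and Nfil3. No window was used for Ahr and Maf.

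Id2, the relative of Id3 that is often high in effector cells, did not pass in either comparison by its brightest probe set. Id2 1435176_a_at read 3492, 3478 and 4022 on naive replicates 1 to 3, 3402, 2121 and 2353 in GVHD, 3979, 2196 and 3043 on naive replicates 4 to 6, and 3942, 5557, 5848, 2996 and 3952 in the tumor arrays. GVHD arrays lay below their own controls, by 0.50 on the log2 scale (adjusted p = 0.27, and 1.07 in the other direction on the deposited scale), and tumor arrays overlapped theirs (log2 0.53, adjusted p = 0.15). The deposited scale raises every GVHD change, since it keeps the GVHD arrays at a trimmed mean of 1500 and the others at 500. The probe set 1422537_a_at rose in the tumor arrays (log2 0.90, SE 0.26, adjusted p = 0.018), from 317, 247 and 278 to 523, 558, 889, 423 and 453. It read 1375, 1783 and 1700 on naive replicates 1 to 3, so it fell by 2.40 between the naive sets (SE 0.29, adjusted p = 0.00032), and the same tumor arrays fell 2.82-fold against naive replicates 1 to 3. Since 1435176_a_at differed by only -0.29 between the naive sets (adjusted p = 0.60), 2 probe sets of 1 gene disagree here.

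Ahr, a ligand-activated bHLH-PAS factor, was highest in GVHD. Ahr 1422631_at read 555, 400 and 500 on naive replicates 1 to 3, 1677, 2377 and 2043 in GVHD, 1326, 1141 and 866 on naive replicates 4 to 6, and 873, 866, 93.9, 524 and 833 in the tumor arrays. The GVHD arrays lay above every other array. Ahr rose 3.99-fold in GVHD (log2 2.00, SE 0.55, adjusted p = 0.017), a call that was lost without naive replicate 2 (adjusted p = 0.060), GVHD-activated replicate 2 (adjusted p = 0.065) or GVHD-activated replicate 3 (adjusted p = 0.052), and against naive replicates 4 to 6 (log2 0.86, adjusted p = 0.25).

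The tumor value of Ahr was -1.04 (SE 0.50, adjusted p = 0.12), and without replicate 3 it was -0.51 (adjusted p = 0.093). The dimmer probe set 1450695_at, between 40.2 and 297 on all arrays, gave -0.23 in GVHD and -0.24 in the tumor arrays, so the rise in GVHD was seen by 1 of 2 probe sets.

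Nfil3, a bZIP repressor related to the PAR factors of the circadian clock and induced by cytokines, was the 1 gene that rose in the tumor comparison. Nfil3 1418932_at read 129, 135 and 298 on naive replicates 4 to 6 and 1272, 1577, 789, 1263 and 1671 in the tumor arrays, with no overlap. It rose 6.31-fold (log2 2.66, SE 0.32, adjusted p = 2.4e-05). Naive replicates 1 to 3 read 732, 795 and 903 and GVHD arrays 1195, 855 and 547, which overlapped (log2 0.03, adjusted p = 0.97). Nfil3 was 4.06-fold lower on naive replicates 4 to 6 than on replicates 1 to 3 (log2 -2.02, SE 0.36, adjusted p = 0.0045), and with the controls exchanged the picture turned: GVHD rose by 2.05 (adjusted p = 0.00062) and the tumor value was 0.64 (adjusted p = 0.12).

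**Figure D4:**
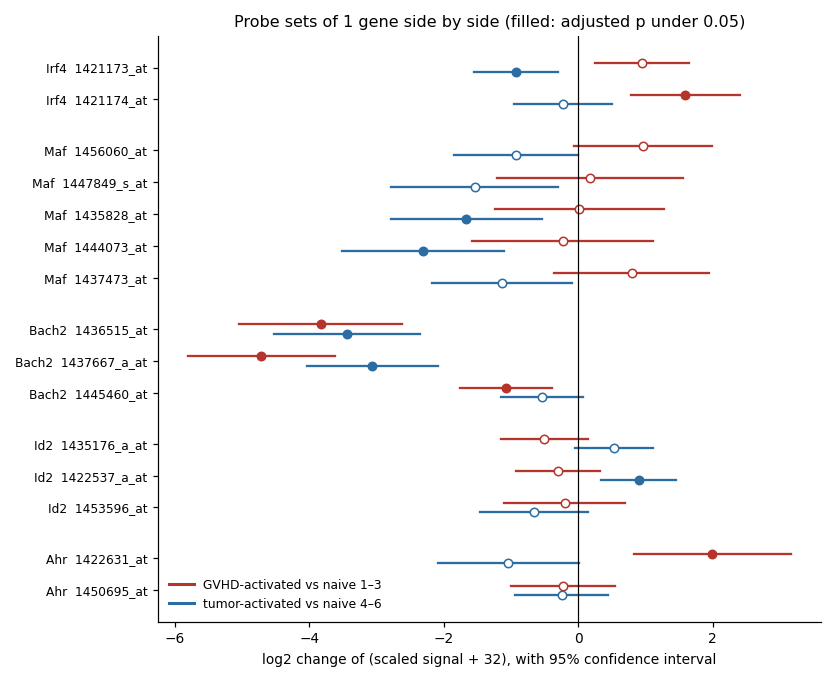
Log2 change with 95% confidence interval of every tested probe set of the 5 genes with more than 1 such probe set, in the GVHD and tumor comparisons; filled points have an adjusted p under 0.05. The 3 Bach2 probe sets lie below 0 in both, whereas those of Ahr differ in GVHD (2.00 and -0.23) and those of Maf differ in call in the tumor arrays.

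The difference between the changes, tumor minus GVHD, was tested in the same model. Of the 10 genes, 4 were lower and 1 higher, where 3.01% and 6.74% of all genes were. Of 20 probe sets 5 were lower and 1 higher, against 2.51% and 5.56% of all. The regulators with a lower change in the tumor arrays were Prdm1 (-3.18, SE 0.84, adjusted p = 0.027), Irf4 (-1.87, SE 0.44, adjusted p = 0.014), Batf (-1.84, SE 0.39, adjusted p = 0.0065) and Ahr (-3.04, SE 0.74, adjusted p = 0.017). Nfil3 had the higher one (2.63, SE 0.48, adjusted p = 0.0027). Maf, at -1.89, missed the threshold (adjusted p = 0.094) and passed without tumor-activated replicate 3 (-1.43, adjusted p = 0.0034).

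For the genes that fell in both settings no difference was called, but the intervals are wide. The 95% interval of the difference was -1.23 to 2.01 for Bach2, -0.36 to 1.30 for Bcl6 and -0.88 to 1.41 for Id3. For Id2 it was 0.17 to 1.90 (adjusted p = 0.15). The differences of Prdm1 and Nfil3 depended on which naive arrays served as controls, since with the sets exchanged Prdm1 gave 0.92 (adjusted p = 0.41) and Nfil3 -1.41 (adjusted p = 0.032). Ahr then gave -0.76 (adjusted p = 0.44), while Irf4 and Batf kept their calls. When arrays were centred on T cell genes 0 of the 4 lower differences passed, with Irf4 at -0.20 and Batf at -0.18.

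**Figure D5:**
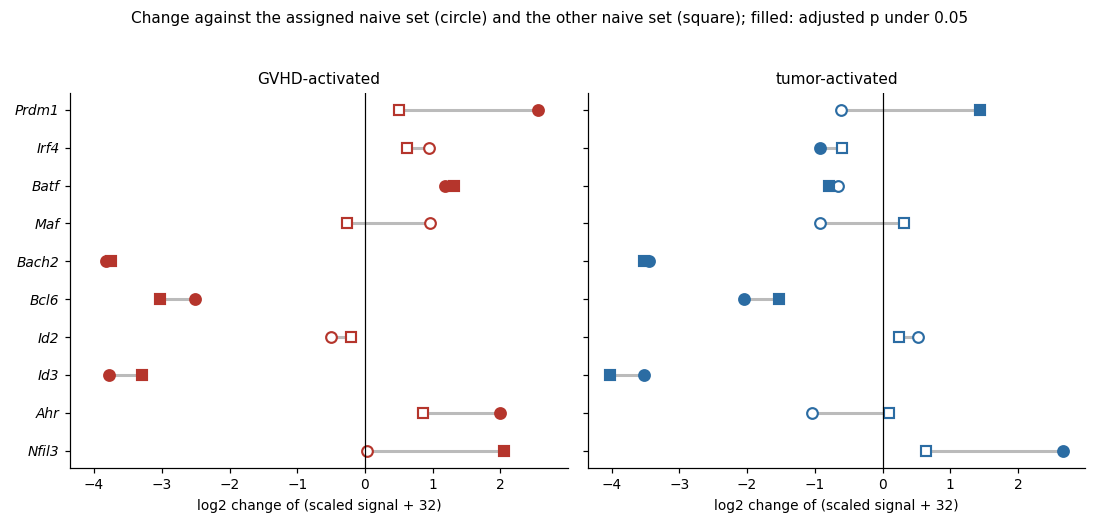
Log2 change of each regulator against its assigned naive set and against the other naive set, for GVHD-activated and tumor-activated arrays. Bach2, Bcl6 and Id3 lie at -1.52 or lower whichever naive set is used, and Prdm1, Ahr, Maf and Nfil3 move by 1.14 to 2.05 between the naive sets.

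Other controls changed which genes passed. Against the other naive set, GVHD gave 2 rises (Batf and Nfil3) and 3 falls (Bach2, Bcl6 and Id3), where 15% and 17.4% of all genes passed. The tumor arrays gave 1 rise (Prdm1) and 4 falls (Batf, Bach2, Bcl6 and Id3), where 21.6% and 24.6% passed. With all 6 naive arrays as 1 control group, Batf rose and the same 3 genes fell in GVHD (11.2% and 15.1% of all genes). For the tumor arrays Nfil3 then rose and Irf4, Batf, Bach2, Bcl6 and Id3 fell (19.9% and 21%).

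The comparison of the naive sets with each other gives the scale of such shifts without activation. Naive replicates 4 to 6 against 1 to 3 called 1 of the 10 genes, Nfil3, as lower and 0 as higher (limma; 3.15% and 4.19% of all genes), and 2 of 20 probe sets as lower (2.95% of all probe sets, with 4.11% higher). The arrays did not overlap in 12 of 20, against 38.1% of all. Prdm1 (2.05), Maf (1.24) and Ahr (1.14) had the largest values above 0, and none passed. RNA integrity was read from Gapdh, whose 3′ probe set over its 5′ probe set was 4.27 to 5.11 on naive replicates 1 to 3 and 7.45 to 19.1 on replicates 4 to 6. It was 3.28 to 4.50 in GVHD and 2.19 to 2.64 in the tumor arrays other than replicate 2, where it was 19.9. Markers of B and plasma cells, which use Blimp-1 themselves, moved between the naive sets too. Of 10 tested, 4 were higher on replicates 4 to 6 and 0 lower by limma (median log2 1.21, beside -0.07 over all genes). The summed signal of the list overlapped, but most of it was Ighm. The B cell gene Ms4a1 read 71.9, 179 and 97.2 on replicates 1 to 3 and 1710, 421 and 1777 on replicates 4 to 6. The part of RNA quality and of these markers in the shifts of Prdm1 and Nfil3 was not tested. The Gapdh ratio also separated naive replicates 4 to 6 from the tumor arrays other than replicate 2. The part of RNA quality in the tumor changes was not tested either.

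Over the 14 arrays the log2 levels of Bach2, Bcl6 and Id3 ran together, with Pearson r of 0.88 for Bach2 with Bcl6, 0.89 for Bach2 with Id3 and 0.86 for Bcl6 with Id3. Prdm1 ran with Maf (0.88) and Ahr (0.87). These values describe arrays that share groups and, in tumor-activated replicate 3, an array low for many T cell genes. The genes most like Bach2 among 12211 others were Mppe1 (r = 0.986), Lrig1 (0.985) and Dtnb (0.984), Lrig1 reading 2458 on average on naive replicates 1 to 3, 74.2 in GVHD and 170 in the tumor arrays. Those most like Id3 were Klk1b27 (0.973), Slc22a2 (0.972) and Ttc28 (0.966), and those most like Prdm1 were Atp10a (0.928), Cdc25a (0.923) and Hif1a (0.919).

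Genes of the surrounding programme were read from lists, none of which was tested as a set. The counts below are to be read beside all 12212 genes, and several lie close to those shares. Of all genes 9.55% rose and 12.1% fell in GVHD (median log2 -0.11), and 16% rose and 15.3% fell in the tumor arrays (median -0.06). In the difference 6.74% were higher and 3.01% lower, and between the naive sets 4.19% and 3.15%. Of 13 tested genes of resting and central Treg cells, 7 fell in GVHD and 11 in the tumor arrays, and 0 rose in either by limma (median log2 -1.40 and -2.25). Ccr7, the receptor for lymph node entry, fell 15.8-fold in GVHD, from 7987 ± 1699 to 475 ± 84.8 (SD, n = 3 each), and 5.93-fold in the tumor arrays. Cd83, a surface glycoprotein counted in this list, fell 72.7-fold and 23.0-fold, and Foxp1, a quiescence factor, 14.9-fold in GVHD. Il6ra and Lef1 fell 7.69-fold and 5.93-fold in the tumor arrays. Bcl2, which protects cells from apoptosis, fell 20.3-fold in GVHD, and its change was 3.52 higher in the tumor arrays (adjusted p = 0.00068).

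Of 17 effector Treg genes, 4 rose and 2 fell in GVHD (median 0.83), and 4 rose and 4 fell in the tumor arrays (median -0.27). Gzmb, granzyme B, rose 131-fold and 8.22-fold. Havcr2, which encodes the inhibitory receptor TIM-3, rose 11.8-fold in GVHD, and Entpd1, the ectoenzyme CD39, 2.74-fold. Ebi3, a subunit of IL-35, fell in both (4.43-fold and 5.19-fold), and Itgae (CD103) and Klrg1 fell 5.23-fold and 2.96-fold in the tumor arrays. By the test of the difference, tumor minus GVHD, 2 of the 17 were lower, Gzmb (-4.00, adjusted p = 0.00095) and Havcr2 (-2.64, adjusted p = 0.0013), and 2 were higher, Fgl2 (1.88, adjusted p = 0.033) and Cd44 (1.52, adjusted p = 0.0074).

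Among 20 partners of IRF factors and Blimp-1, 3 rose in GVHD and 0 fell by limma. These were Zbtb32, a BTB zinc finger repressor (8.52-fold), Tbx21, which encodes T-bet (7.59-fold), and the interferon regulator Irf7 (2.45-fold). The tumor comparison had 2 rises and 3 falls. The genes that rose were Spi1, the myeloid factor PU.1 (3.20-fold), and Xbp1 (2.42-fold), and Gata3 and Irf3 fell 4.82-fold and 1.97-fold.

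Of 17 AP-1, Maf and Bach partners, 1 rose and 6 fell in GVHD, while 8 rose and 2 fell in the tumor arrays (median -0.52 and 1.21). Jun, Fosl2 and Junb fell 12.8-fold, 5.59-fold and 5.20-fold in GVHD, and Batf3, at 101 ± 46.9 against 14.9 ± 6.29 (SD, n = 3 each), rose 2.74-fold. Fosl2 rose 7.08-fold in the tumor arrays, as did Batf2 (7.71-fold), Nfe2 (5.89-fold) and Atf3 (5.58-fold). The naive sets differed in this list too, with 5 of 17 lower on replicates 4 to 6. Junb read 17308 ± 4436 on replicates 1 to 3, 1311 ± 598 on replicates 4 to 6 and 3291 ± 773 in GVHD (SD, n = 3 each). Its GVHD mean was thus below that of its assigned controls and above that of the other naive set.

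Of 9 E protein and other Id genes, Cdkn1a, the cell cycle inhibitor p21, rose 9.75-fold and Tcf12, the E protein HEB, fell 2.77-fold in GVHD. The tumor arrays had 4 rises, Cdkn1a (18.0-fold), the haematopoietic factors Tal1 (8.20-fold) and Lyl1 (7.81-fold) and the Id gene Id1 (3.12-fold). Of 5 tested Ahr pathway genes, Hsp90aa1, a chaperone of the receptor, rose 2.05-fold in GVHD and 1.70-fold in the tumor arrays, and Ido1 rose 4.47-fold in the latter. Of 10 clock and PAR bZIP genes, which share target sites with Nfil3, 4 fell in GVHD (Dbp 8.09-fold, Nr1d2 6.38-fold, Per2 2.72-fold and Per1 2.70-fold). In the tumor arrays Bhlhe40 rose 7.02-fold, and Rora, Nr1d1 and Dbp fell 3.07-fold, 2.65-fold and 2.30-fold. Bhlhe40 read 939 ± 895 on naive replicates 4 to 6 and 2977 ± 504 on replicates 1 to 3 (SD, n = 3 each), beside 5422 ± 1777 (SD, n = 5) in the tumor arrays.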

How the data were processed

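Per the labels' protocols, RNA was extracted with Trizol and labelled with biotin. The deposited values are probe set intensities that the authors computed with MAS5 (version not given in the sources used here), per the submitters' processing notes. Here all arrays were brought to a 2% trimmed mean of 500 before log2(signal + 32) was taken. Probe sets with 1 gene symbol and a signal of at least 100 in at least 3 arrays were kept, which left 22143. Limma 3.58.1 in R 4.3.3 fitted 1 mean per group to the 14 arrays of 4 groups (lmFit, then eBayes with an intensity trend), after tests on simulated data, with a Benjamini-Hochberg threshold of 0.05. The number of arrays limits the precision.

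The 10 genes and the lists were chosen with earlier results of these data known. Named beside them were up to 4 called genes of largest change per list and comparison, and the 3 genes most correlated with Prdm1, Bach2 and Id3. Of 186 list entries, 168 matched a symbol or Entrez number of the platform. Promoter windows came from RefSeq (GRCm38.p6), which held them for 8 of the 10 genes. The build behind the array was not given in the sources used here. Scaling, offset, filter, unit, controls, weights, block and arrays were varied.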

Additional observations from a re-analysis of the deposited data

Results flagged for a closer look

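In the tumor-activated group, replicate 3 stood below the other 4 arrays for Maf 1456060_at and Ahr 1422631_at. The gap between it and the next array was 0.747 of the group's range for Maf and 0.753 for Ahr, above the Dixon limit for 5 samples, which chance passes in about 1 in 20 groups. On that array Maf read 1549 and Ahr 93.9, and the summed signal of the T cell genes was at its lowest too.

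The change in the tumor arrays differed from that in GVHD, by the test of the difference, for Prdm1 (-3.18), Irf4 1421173_at (-1.87), Irf4 1421174_at (-1.82), Batf (-1.84), Ahr 1422631_at (-3.04) and Nfil3 (2.63). Each is on the log2 scale, tumor minus GVHD, with each activated group set against its own naive arrays.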

How the results depend on the processing

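Bach2 and Id3 passed in the same direction in all 30 other settings of both comparisons, and Bcl6 in 29 of 30 each. Counts of calls moved most with scaling. Over all probe sets 1925 were higher and 2630 lower in GVHD, 3115 and 3639 in the tumor arrays, and 1231 and 556 in the difference. In that order, the deposited scale gave 15512 and 421 in GVHD and 563 and 13900 in the difference, and centring on T cell genes gave 363 and 233, 15738 and 36, and 4 lower in the difference. With 1 probe set a gene the counts were 1201 and 1526, and 1974 and 1895, and with the mean over probe sets 1096 and 1560, and 1947 and 2136, with fewer features tested. The groups of a comparison fitted alone gave 3181 and 4442 in GVHD and 2282 lower in the tumor arrays. The other naive set gave 2974 and 3990 in GVHD and 3983 and 3875 in the difference, and all 6 naive arrays 3357 and 2838 there. Array weights gave 3170 and 4726, 6056 and 7205, and 3470 and 2362. Without tumor-activated replicate 3 and naive replicate 6 the counts were 2899 and 4342 in GVHD and 1856 and 1004 in the difference. Leaving out 1 array gave 1321 to 2891 and 1629 to 4409 in GVHD, 1994 to 3589 and 1734 to 4073 in the tumor arrays, and 741 to 1993 and 320 to 1067 in the difference.

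Of the 10 genes, those higher in GVHD numbered 7 on the deposited scale, 5 with both groups alone, with array weights or without both arrays, and 1 against all 6 naive arrays. In the tumor arrays centring gave 6 higher and 2 lower, and weights 2 and 7. These counts are to be read beside those over all probe sets above. Most of all probe sets were also called higher in GVHD on the deposited scale, and in the tumor arrays with centring. Groups alone, weights and leaving out both arrays raised the GVHD counts over all probe sets as well. In the difference, the deposited scale gave 0 higher (limma), weights 2 higher and centring 0 lower. Leaving out 1 array gave 2 to 5 higher and 3 lower in GVHD, 1 higher and 3 to 5 lower in the tumor arrays, and 1 higher and 3 to 5 lower in the difference. Signs turned in GVHD for Maf against the other naive set (-0.27), Id2 on the deposited scale (1.07) and Nfil3 with weights (-0.061) or without naive replicate 1 (-0.037) or GVHD-activated replicate 1 (-0.23), its range over arrays left out reaching 0.31. In the tumor arrays they turned with centring for Prdm1 (1.38), Irf4 (1.08), Batf (1.34), Maf (1.07) and Ahr (0.96), with the other naive set for Prdm1 (1.43), Maf (0.32) and Ahr (0.095), and with all 6 naive arrays for Prdm1 (0.41). In the difference they turned with the other naive set for Prdm1 (0.92), Maf (0.59), Id3 (-0.73) and Nfil3 (-1.41), and on the deposited scale for Bach2 (-1.03), Bcl6 (-0.75), Id2 (-0.54) and Id3 (-1.04). Id3 also turned with all 6 naive arrays (-0.23), without both arrays (-0.11), without naive replicate 6 (-0.11) and without GVHD-activated replicate 2 (-0.0073), its range over arrays left out reaching 0.73. The deposited scale keeps the GVHD arrays at a trimmed mean of 1500 and the others at 500. By construction it raises every GVHD change and lowers every difference. The causes of the turns in the other settings were not tested. Prdm1 lost its call in the difference without naive replicate 2, 3, 4 or 5 or GVHD-activated replicate 2 or 3 (adjusted p = 0.060 to 0.072).

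Deviations of same-numbered arrays from their group means had correlations of 0.041, 0.089 and -0.044 in GVHD and -0.51 and 0.090 in the tumor arrays. These values gave no sign that the numbers pair the samples, but so few arrays cannot exclude it. With the replicate block, 1436 were higher and 607 lower in the tumor arrays, 815 and 227 in the difference, 1 of the 10 genes was lower in the difference, and Id3 there was at -0.13.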
